A study of Mus musculus with 89 samples.

Results

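The genes described here are 9 genes of myelin and of maturing oligodendrocytes: Mbp, Gjc3, Aspa, Plekhb1, Cnp, Mag, Mog, Mobp and Mal. Their RNA was measured on Clariom S arrays in 89 mouse forebrains taken at embryonic day 18.5, 1 array for each embryo. Each gene has 1 probe set that carries its symbol alone, so the 9 make up 9 of 19572 named probe sets and of 22206 in all. The 9 were picked with earlier results of the Ts66Yah comparison known, in which some of them had been called, so their values in the trisomy comparisons are given as a description. Oligodendrocytes wrap axons in myelin, a compacted membrane built from a small set of abundant proteins. They arise from dividing precursors marked by Olig1, Olig2 and Sox10, and the myelin genes are switched on as a precursor leaves the cycle and matures under the transcription factors Sox10 and Myrf. In rodents maturation and myelination start in the spinal cord and hindbrain, and most of the forebrain is myelinated after birth.

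The study compared 2 mouse models of Down syndrome, each with euploid embryos of the same litters. Ts65Dn embryos (n = 23) carry a small extra chromosome that joins distal Mmu16 (mouse chromosome 16) to proximal Mmu17, while their EupTs65Dn littermates (n = 18) lack it. Ts66Yah embryos (n = 24) carry the extra Mmu16 part without the Mmu17 part, and their EupTs66Yah littermates (n = 24) lack it. Both strains were kept on a mixed background of B6 and C3H, and no group was treated. The extra chromosome of Ts65Dn came through the mother, because the males are infertile. The Ts66Yah colony descends from a few founder females and was expanded by in vitro fertilisation with sperm of a few males, which limits how widely it samples its strain. Each colony gave 6 litters, which are embryos of 1 dam, and both sexes were in every group, with 13 females and 10 males in Ts65Dn, 9 and 9 in EupTs65Dn, 13 and 11 in Ts66Yah, and 11 and 13 in EupTs66Yah. None of the 9 genes lies on Mmu16, and Mog lies on Mmu17, outside the proximal part that Ts65Dn embryos carry in an extra copy.

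The colonies lay at different levels, with array means between 5.26 and 5.33 on the log2 scale in the Ts65Dn colony and between 6.05 and 6.41 in the Ts66Yah colony. No level is therefore set against one of the other colony. EupTs66Yah replicate 16 had a standard deviation of 1.13 over its probe sets, against 2.23 or more in each of its fellow EupTs66Yah arrays. It is named the low-spread array here, and the Ts66Yah differences of the 9 genes are given with and without it. Ranges and counts of embryos in the account of each gene are over all arrays. The probe sets of 117 genes of the triplicated Mmu16 part put 4 arrays nearer to the opposite genotype than to their own (Ts65Dn replicate 18, Ts66Yah replicates 13 and 24, EupTs66Yah replicate 24), and Y-linked genes went against the labelled sex in 17 arrays. All were kept under their labels. The 9 cortical excitatory neuron markers had median percentiles of 90.0 (Ts65Dn colony) and 82.6 (Ts66Yah colony) among all probe sets, with Neurod6 highest at 99.3 and 98.7 and Emx1 lowest at 51.6 and 45.5.

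The 9 genes spanned a wide range of signal. In the Ts66Yah colony without the low-spread array, Cnp, Plekhb1, Mbp and Mal lay between the 57.0 and 63.9 percentiles of all probe sets. Gjc3 lay at the 46.7 percentile there, and Mag, Mobp, Aspa and Mog lay between the 14.6 and 28.5 percentiles. In the Ts65Dn colony the same first 4 lay between the 49.4 and 63.0 percentiles and the other 5 between the 13.7 and 30.9 percentiles. The files hold no detection p-value, so whether the dimmer genes were above background cannot be read from them. The order among probe sets also depends on each probe's own brightness and is no order of transcript amounts.

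The promoters of these genes are shown for Gjc3, Plekhb1 and Cnp, which had some of the larger differences in Ts66Yah, and for Mag, whose difference there was below 0. The windows hold the 250 bases before an annotated start, from RefSeq on build GRCm38.p6, and 8 of the 9 genes with 11 starts were matched. Capitals mark the SOX motif (ACAAAG or ACAATG, the letters bound by Sox10 and other SOX factors) and the MYRF motif (CTGGCAC or CTGGTAC), searched on both strands.
Gjc3, chr5:137963099-137963348, minus strand: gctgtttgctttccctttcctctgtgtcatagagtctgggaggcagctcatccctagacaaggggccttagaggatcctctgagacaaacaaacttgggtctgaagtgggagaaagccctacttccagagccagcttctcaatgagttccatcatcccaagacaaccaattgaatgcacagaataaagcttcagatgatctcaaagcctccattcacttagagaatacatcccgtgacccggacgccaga
Plekhb1, second start, chr7:100656966-100657215, minus strand: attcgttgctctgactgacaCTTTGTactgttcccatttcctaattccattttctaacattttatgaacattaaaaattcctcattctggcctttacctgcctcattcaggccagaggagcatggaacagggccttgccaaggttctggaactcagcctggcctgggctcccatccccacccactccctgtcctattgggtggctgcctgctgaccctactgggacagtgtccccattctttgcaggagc
Cnp, chr11:100574689-100574938, plus strand: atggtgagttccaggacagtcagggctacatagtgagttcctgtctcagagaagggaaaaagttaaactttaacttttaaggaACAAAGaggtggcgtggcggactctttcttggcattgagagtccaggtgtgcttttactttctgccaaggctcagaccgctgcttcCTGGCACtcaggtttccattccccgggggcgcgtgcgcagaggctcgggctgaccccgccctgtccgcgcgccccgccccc
Mag, first start, chr7:30914864-30915113, minus strand: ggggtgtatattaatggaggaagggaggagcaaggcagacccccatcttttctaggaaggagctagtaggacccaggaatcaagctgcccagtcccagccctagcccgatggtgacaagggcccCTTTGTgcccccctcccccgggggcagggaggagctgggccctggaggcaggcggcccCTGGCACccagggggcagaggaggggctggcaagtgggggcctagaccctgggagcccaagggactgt
Cnp held 1 match of each motif, 167 bases (SOX) and 81 bases (MYRF) before the start, and Mag held 1 of each, 126 and 68 bases before it. Plekhb1 held 1 SOX match at its second start, and Gjc3 held no match. Among the members not printed, Mobp held 6 SOX matches, Mog 1 MYRF match and Mal none. Aspa held no SOX or MYRF match and 1 match of the E-box CAGCTG, the letters of a motif that OLIG factors can bind. No 2 matches overlapped in these windows. Over 32851 promoter windows of the same length, 25.2% held the SOX letters, 5.93% the MYRF letters and 13% the E-box. A match says only that the letters are present in the window.

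Ts66Yah embryos had higher mean values than EupTs66Yah embryos for 8 of the 9 genes, and the 4 brighter genes were all among the 8. Of all probe sets, 58.6% had a higher mean with all arrays and 51.6% without the low-spread array. With all arrays, 3 of 9 members were called (Mbp, Gjc3 and Plekhb1) and all 3 were higher, where 0.162% of the 22206 probe sets were called higher. Calls are those of limma at a 10% Benjamini-Hochberg threshold. Without the low-spread array 5 of 9 were called higher (Mbp, Gjc3, Plekhb1, Aspa and Mal), where 0.757% of probe sets were. The median log2 difference of the 9 was 0.41 with all arrays, against 0.04 over all probe sets, and 0.33 without the low-spread array, against 0.00. Since the members were chosen on this comparison, these counts describe them and test nothing. In bulk tissue a change in the number of cells of a type and a change in the RNA of each cell cannot be told apart.

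Mbp encodes myelin basic protein, which pulls the membrane layers of myelin together. Its lowest, median and highest log2 values were 6.06, 7.49 and 8.33 in Ts66Yah, against 4.99, 6.79 and 7.95 in EupTs66Yah. The groups overlapped over most of their range, and 20 of 24 Ts66Yah embryos lay above the EupTs66Yah median. The difference was 0.69 (SE 0.17), a 1.61-fold higher mean, and 0.62 (SE 0.16) without the low-spread array, which itself held the lowest Mbp value of its group at 4.99. Gjc3 encodes a connexin, a gap junction protein of oligodendrocytes and Schwann cells. Its values were 4.96, 6.50 and 7.03 in Ts66Yah, against 4.05, 5.75 and 7.31 in EupTs66Yah. Here 21 of 24 Ts66Yah embryos lay above the EupTs66Yah median, while the single highest embryo was euploid (replicate 1). The difference was 0.66 (SE 0.16), and 0.67 (SE 0.16) without the low-spread array.

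Plekhb1 encodes a membrane-associated protein with a pleckstrin homology domain. Its values were 7.06, 7.49 and 8.17 in Ts66Yah, against 6.42, 7.18 and 7.75 in EupTs66Yah. Of the 24 Ts66Yah embryos 22 lay above the EupTs66Yah median (20 without the low-spread array) and 5 above every EupTs66Yah embryo. The difference was 0.44 (SE 0.10), and 0.41 (SE 0.10) without the low-spread array. Cnp encodes a cyclic nucleotide phosphodiesterase that keeps channels open through the uncompacted parts of myelin. Its values were 6.81, 7.59 and 8.10 in Ts66Yah, against 5.14, 7.20 and 7.69 in EupTs66Yah. The value of 5.14 was the low-spread array, and the next lowest EupTs66Yah value was 6.15. The difference was 0.41 (SE 0.13), and 0.33 (SE 0.10) without that array, and Cnp was called in neither fit.

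Mal encodes a proteolipid that sorts cargo to the myelin membrane. Its values were 6.14, 7.04 and 7.73 in Ts66Yah, against 6.27, 6.73 and 7.02 in EupTs66Yah. The upper ends separated more than for any other member, with 13 of 24 Ts66Yah embryos above every EupTs66Yah embryo, although the lowest embryo of all was Ts66Yah. The difference was 0.30 (SE 0.09), and 0.30 (SE 0.08) without the low-spread array. Aspa encodes aspartoacylase, the oligodendrocyte enzyme that splits N-acetylaspartate. Its values were 4.16, 4.77 and 5.68 in Ts66Yah, against 3.21, 4.31 and 5.70 in EupTs66Yah. Of the 24 Ts66Yah embryos 22 lay above the EupTs66Yah median, and 10 EupTs66Yah embryos lay below every Ts66Yah embryo. No Ts66Yah embryo lay above the highest EupTs66Yah embryo (replicate 23). The difference was 0.54 (SE 0.15), and 0.56 (SE 0.15) without the low-spread array.

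The other 3 genes, Mag, Mog and Mobp, differed least. They were dim, as was Aspa, which lay at the 27.1 percentile in the Ts66Yah colony without the low-spread array. Mag, an adhesion protein on the innermost myelin layer facing the axon, had values of 3.95, 4.52 and 5.50 in Ts66Yah, against 3.90, 4.67 and 7.18 in EupTs66Yah. Mog, on the outermost myelin surface, had 3.30, 3.79 and 4.39 in Ts66Yah, against 2.78, 3.66 and 5.85 in EupTs66Yah. Mobp, a small basic protein of compact myelin, had 3.42, 4.72 and 5.81 in Ts66Yah, against 3.37, 4.63 and 6.57 in EupTs66Yah. All 3 highest EupTs66Yah values came from the low-spread array, the same array that held the lowest values of Mbp, Cnp and Plekhb1 in its group. With all arrays the differences were -0.15 (SE 0.15) for Mag, 0.15 (SE 0.13) for Mog and 0.04 (SE 0.18) for Mobp. Without that array they were -0.05 (SE 0.12), 0.24 (SE 0.10) and 0.12 (SE 0.16).

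**Figure D1:**
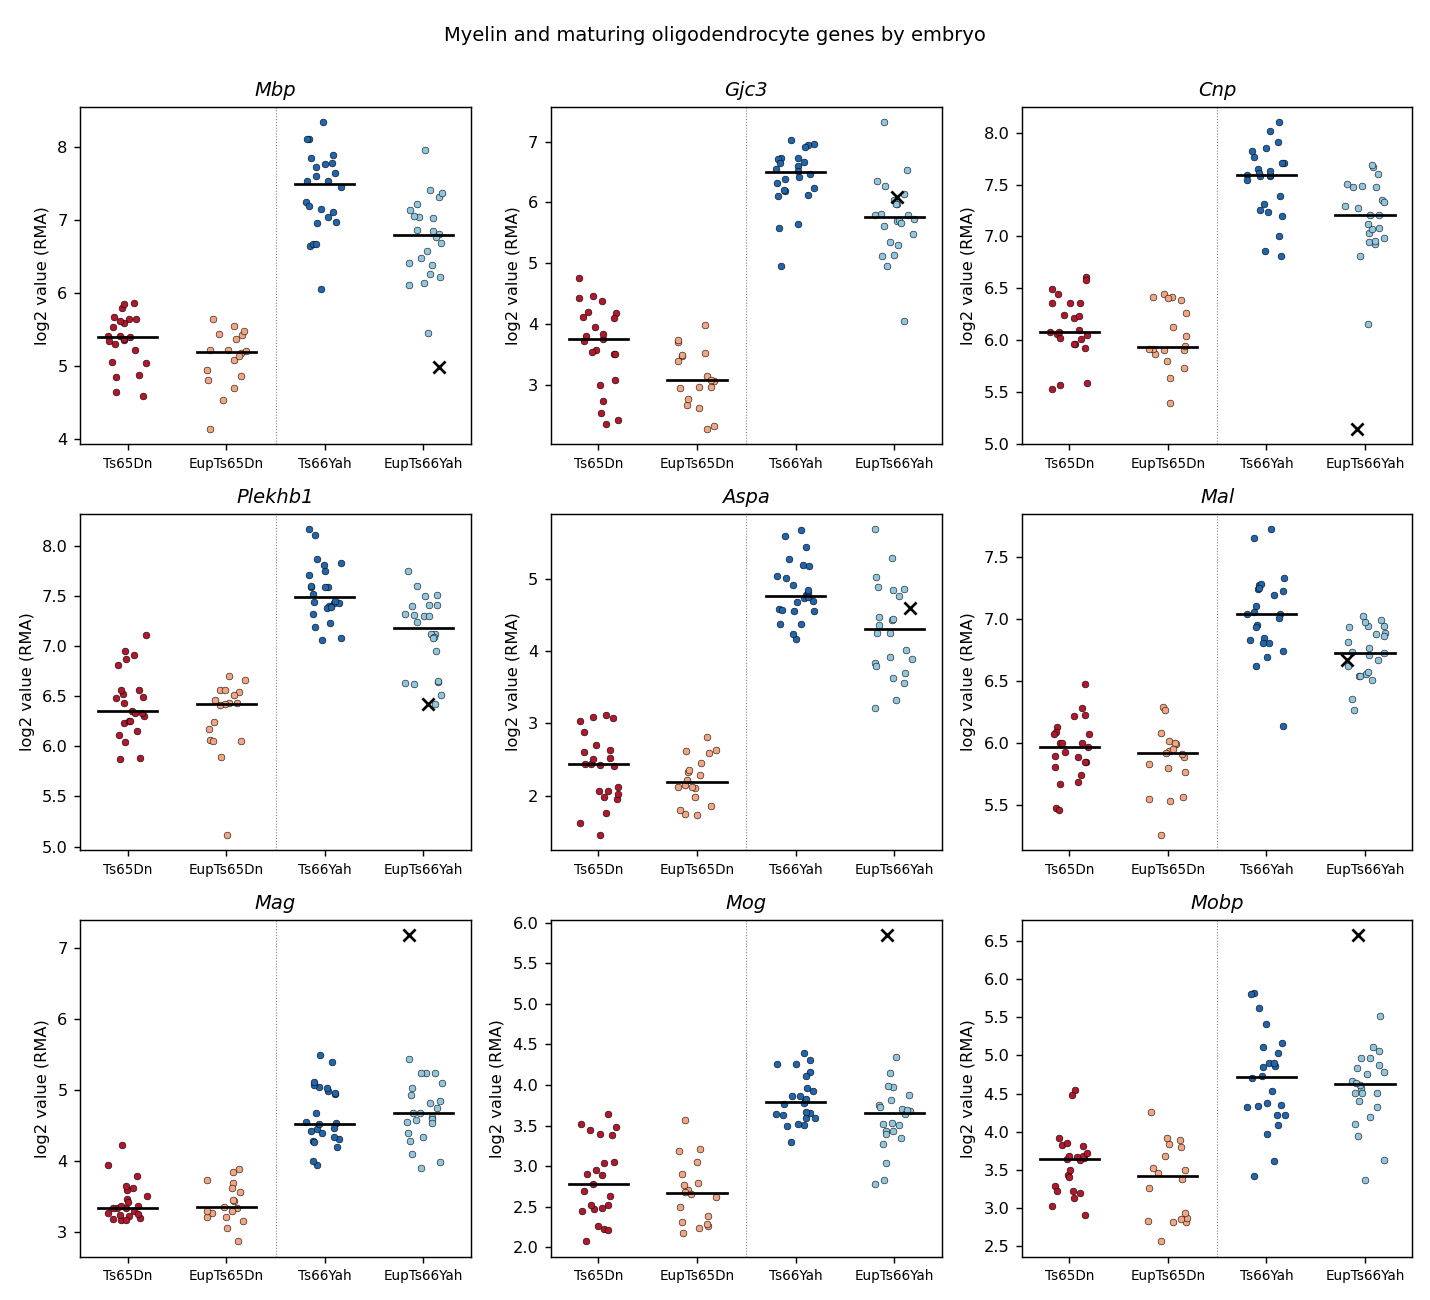
Log2 value of each gene (vertical axis) in each embryo, by group (horizontal axis), with a horizontal line at the group median. The cross is the low-spread array, which lies at the bottom of EupTs66Yah for Mbp (4.99) and Cnp (5.14) and at the top for Mag (7.18), Mog (5.85) and Mobp (6.57), and the colonies on either side of the dotted line were not compared by level.

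The calls depended on which arrays and which scale were used, and 6 EupTs66Yah arrays, the low-spread one among them, were narrower than any Ts66Yah array in the standard deviation of their probe sets. No member was called without those 6 (where 0.342% of probe sets were), nor without the low-spread array once array spread was a covariate (where 0.41% were). In both of these fits the log2 differences of the 9 genes were all above 0, with medians of 0.30 and 0.28. With all arrays, the litter as a replicate block left 1 call among the 9 (Mbp), where 0.14% of probe sets were called. The sex covariate (0.162%) and the methods' t-test (0.203%) each left 2, Gjc3 and Plekhb1. No member was called after quantile normalization (0.122%), after centring each array on its median (0.153%), or without litter WT12 (0.0675%) or litter WT15 (0.0991%). Plekhb1 alone was called without WT13 (0.144%) or WT18 (0.396%), and Mbp alone without WT19 (0.158%). Without WT11 (0.194%) Mbp, Gjc3 and Plekhb1 were all called. Without the low-spread array, 3 were called after centring (Mbp, Gjc3 and Plekhb1), where 0.95% of probe sets were, and 3 with the litter as a replicate block, where 0.703% were. There were 6 called when the 3 arrays of this colony with a mismatched Mmu16 level were left out as well, Cnp being the added one, where 1.47% of probe sets were called.

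Ts65Dn embryos had a higher mean than EupTs65Dn embryos for 9 of 9 genes, where 49.0% of all probe sets had one. Of the 9, 0 were called by limma, where 0.459% of the probe sets were called higher, and 0 by the methods' t-test. The median log2 difference of the 9 was 0.14, against 0.00 over all probe sets. Gjc3 had the largest difference: its values were 2.37, 3.76 and 4.75 in Ts65Dn, against 2.29, 3.08 and 4.0 in EupTs65Dn. The medians lay further apart than for any other member, 8 of 23 Ts65Dn embryos lay above every EupTs65Dn embryo, and the log2 difference was 0.53 (SE 0.18). Mbp had values of 4.58, 5.40 and 5.86 in Ts65Dn, against 4.14, 5.19 and 5.65 in EupTs65Dn. With 17 of 23 Ts65Dn embryos above the EupTs65Dn median, its difference was 0.24 (SE 0.12).

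The remaining 7 differences lay between 0.03 (Mag, SE 0.09) and 0.24 (Mobp, SE 0.14). Cnp had values of 5.53, 6.08 and 6.61 in Ts65Dn, against 5.39, 5.93 and 6.45 in EupTs65Dn, a difference of 0.09 (SE 0.09). Aspa had values of 1.46, 2.44 and 3.11 in Ts65Dn, against 1.73, 2.18 and 2.82 in EupTs65Dn. Its difference was 0.17 (SE 0.13), and both the lowest and the highest embryos were Ts65Dn. For Plekhb1 the mean and the median did not share a direction, since the mean difference was 0.13 (SE 0.11) while the Ts65Dn median was 6.35 and the EupTs65Dn median 6.43. Mal differed by 0.08 (SE 0.08) and Mog by 0.14 (SE 0.13). The looser criterion of the series needs an unadjusted p below 0.01 and a ratio outside 0.8 to 1.2. It took Gjc3 alone of the 9 in Ts65Dn, where it took 1.03% of probe sets (0.851% as higher). With all Ts66Yah and EupTs66Yah arrays it took 6 members (Mbp, Gjc3, Plekhb1, Cnp, Aspa and Mal), where it took 2.01% (1.32% as higher).

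**Figure D2:**
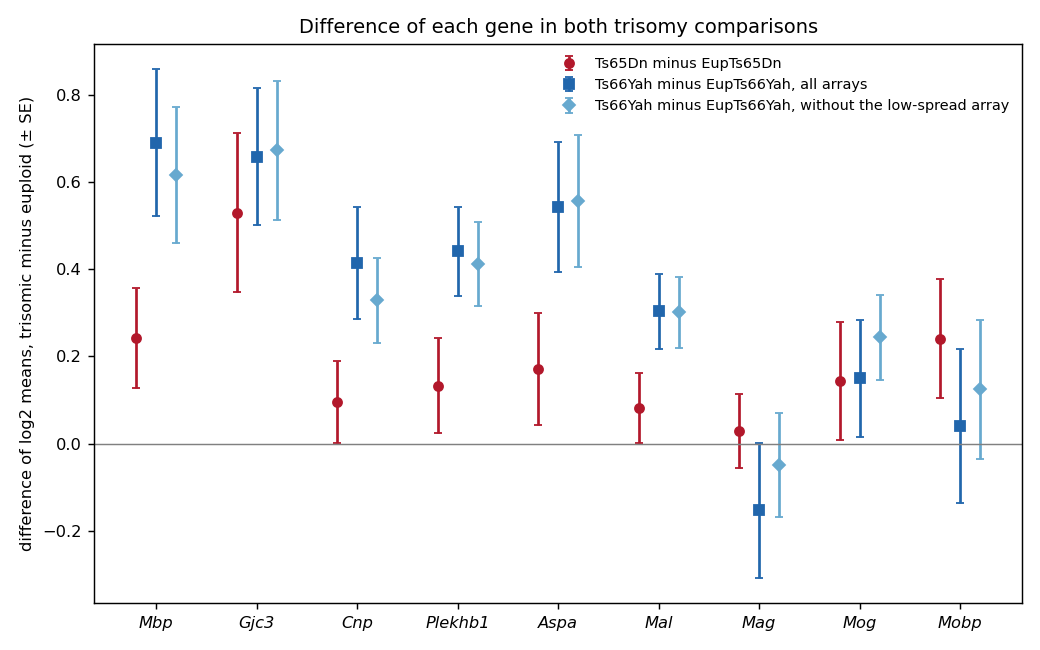
Difference of log2 means, trisomic minus euploid (vertical axis, bars are 1 SE), for each gene in Ts65Dn (circles), in Ts66Yah with all arrays (squares) and in Ts66Yah without the low-spread array (diamonds). Gjc3 is the gene with a difference above 0.5 in every series of points, and Mag is the gene whose Ts66Yah points lie below 0.

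The difference between the effects, Ts66Yah minus Ts65Dn, was described in 1 fit of all groups. With all arrays it was largest for Mbp, at 0.45 (SE 0.21), and Mbp had 0.37 (SE 0.20) without the low-spread array. For Aspa it was 0.37 (SE 0.20), for Cnp 0.32 (SE 0.17) and for Plekhb1 0.31 (SE 0.15), and without the low-spread array 0.38, 0.23 and 0.28. For Gjc3 it was 0.13 (SE 0.24), and 0.14 (SE 0.25) without that array. For Mal it was 0.22 (SE 0.12) and for Mog 0.006 (SE 0.19), and without that array 0.22 and 0.10. It lay below 0 for Mag, at -0.18 (SE 0.19), and for Mobp, at -0.20 (SE 0.23), and without that array at -0.08 and -0.12. None of the 9 was called for this difference, where 0.00901% of probe sets were called with all arrays and 0.149% without the low-spread array. The colonies lay at different levels on the log2 scale, with the members at different percentiles of each. How far this enters the difference of the effects was not tested.

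The litters, which the choice of genes did not use, gave a closer view of both comparisons. In the Ts66Yah colony without the low-spread array, Mal was higher in Ts66Yah than in EupTs66Yah littermates in 6 of 6 litters, by 0.09 to 0.43. Mbp, Gjc3, Aspa, Plekhb1, Cnp and Mog were higher in 5 of 6, Mag in 4 and Mobp in 3. For Mbp the exception was litter WT11, where 3 Ts66Yah embryos averaged 7.44 and the 1 EupTs66Yah embryo stood at 7.95. That embryo, EupTs66Yah replicate 1, was the highest of its group for Mbp and also for Gjc3 (7.31, against a mean of 6.70 in its Ts66Yah littermates). In the other 5 litters the Mbp difference ran between 0.19 (WT19) and 1.22 (WT12).

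In the Ts65Dn colony, Gjc3, Plekhb1 and Mobp were higher in Ts65Dn than in EupTs65Dn littermates in 5 of 6 litters. Mbp, Aspa and Mog were higher in 4, Cnp and Mal in 3 and Mag in 2. The Gjc3 differences were widest in TS113 (means of 4.18 in Ts65Dn and 3.01 in EupTs65Dn) and TS18 (3.95 and 2.89). For Mbp, TS137 ran the other way, with 4.88 in Ts65Dn and 5.40 in EupTs65Dn. These litter counts come from the embryos of the trisomy comparisons and add no independent support to them.

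**Figure D3:**
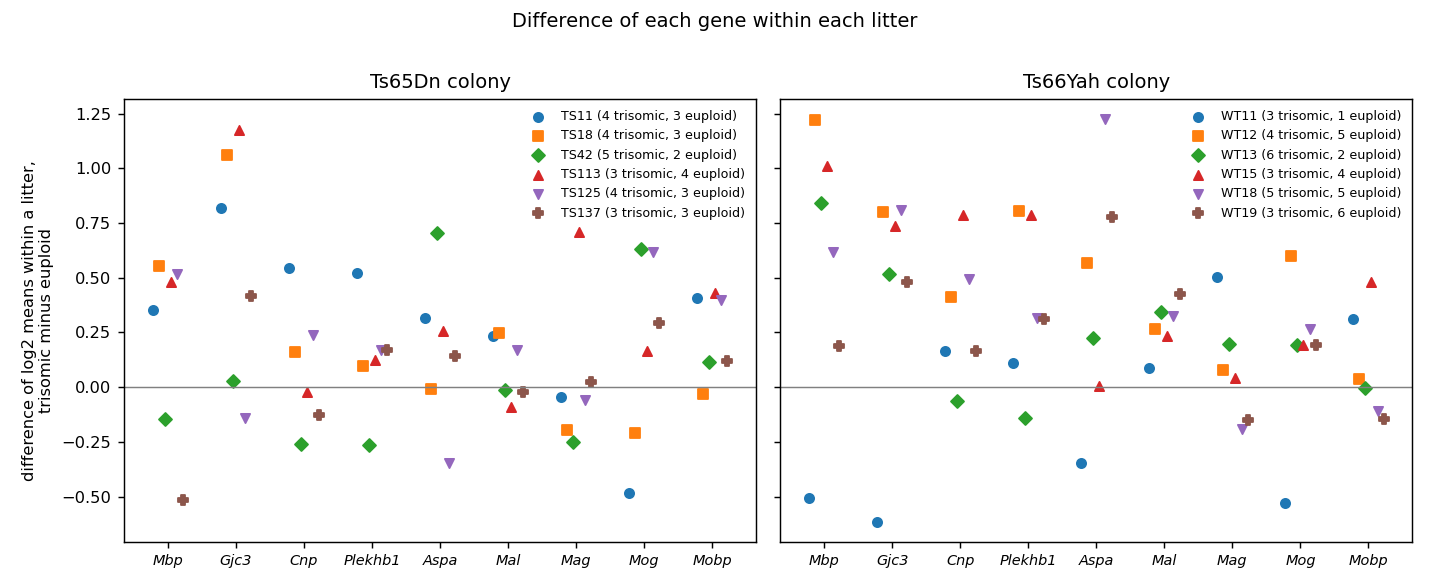
Difference of log2 means within each litter, trisomic minus euploid (vertical axis), for each gene, with 1 symbol for each litter and the low-spread array left out. In the Ts66Yah colony every Mal symbol lies above 0, and litter WT11, with 1 euploid embryo, lies below 0 for Mbp, Gjc3, Aspa and Mog.

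Litters did not differ detectably in these genes by limma's moderated F test with genotype in the model. In the Ts65Dn colony 0 of 9 were called, where 0.378% of probe sets were. There 1 had an unadjusted p under 0.05, where 10.7% of all probe sets had. It was Mog, with litter means between 2.47 (TS18) and 3.12 (TS125) and an adjusted p of 0.37. In the Ts66Yah colony without the low-spread array 0 of 9 were called, where 0.0901% were. An unadjusted p under 0.05 was found for 0 of 9, where 11.5% of all probe sets had one. Gjc3 came nearest, with litter means between 5.71 (WT19) and 6.85 (WT11) and an adjusted p of 0.48.

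Females and males, taken by label, did not differ detectably either, by limma with genotype in the model. Y-linked genes went against that label in 17 of the 89 arrays. Gjc3 in the Ts66Yah colony averaged 6.31 ± 0.48 in females (SD, n = 23) and 5.84 ± 0.72 in males (n = 24), a difference of 0.40 (SE 0.15, adjusted p = 0.76). It was the 1 gene of 9 with an unadjusted p under 0.05, where 4.97% of all probe sets had one. Of the 9, 0 were called, where 0.401% of probe sets were. Mbp was 0.28 higher in females there (SE 0.15, adjusted p = 1.00), while in the Ts65Dn colony its female minus male difference was -0.22 (SE 0.11, adjusted p = 0.87). In that colony 0 of 9 were called, where 0.0675% were. There 1 had an unadjusted p under 0.05 (Mog, 0.27, SE 0.13, adjusted p = 0.86), where 5.76% of all probe sets had. Without the arrays against their label none of the 9 was called either, where 0.437% (Ts65Dn colony) and 0.748% (Ts66Yah colony) were. Gjc3 then differed by 0.40 (adjusted p = 0.85) and Mbp by 0.33 in the Ts66Yah colony. In the Ts65Dn colony Mbp differed by -0.25 (adjusted p = 0.77) and Mog by 0.27 (adjusted p = 0.78).

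Within groups, Mbp, Cnp and Gjc3 varied together from embryo to embryo in the Ts66Yah colony. Each value was taken as its deviation from its group mean, so that genotype does not enter, and 16 relations with Mbp were tested (8 genes in 2 colonies) by permutation. Over 47 embryos without the low-spread array, Cnp followed Mbp with Pearson's r of 0.66 (permutation p = 1e-05, the smallest 100000 resamples can give, adjusted p = 0.00016) and Spearman's rho of 0.58 (permutation p = 4e-05). It was 0.79 within Ts66Yah and 0.52 within EupTs66Yah, 0.55 without the 2 embryos farthest from the Mbp median, and 0.64 with litter effects also subtracted. Gjc3 followed Mbp with r of 0.56 (permutation p = 5e-05, adjusted p = 0.0004) and rho of 0.47 (permutation p = 0.0011). It was 0.57 within each group, 0.50 without the 2 farthest embryos and 0.59 with litter effects subtracted. The other 6 genes had r between 0.12 (Aspa) and 0.31 (Plekhb1), with adjusted p-values of 0.18 to 0.47.

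None of the 8 relations passed in the Ts65Dn colony. The highest r over 41 embryos were 0.28 for Cnp (rho 0.26, permutation p = 0.072, adjusted p = 0.23) and 0.26 for Gjc3 (rho 0.12, permutation p = 0.10, adjusted p = 0.25). The other 6 lay between -0.20 (Aspa) and 0.09 (Plekhb1). Over all 36 pairs of the 9 genes, as a description, 27 had r above 0 in the Ts66Yah colony (median 0.14) and 15 in the Ts65Dn colony (median -0.12). Whether the colonies differ in these correlations was not tested.

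**Figure D4:**
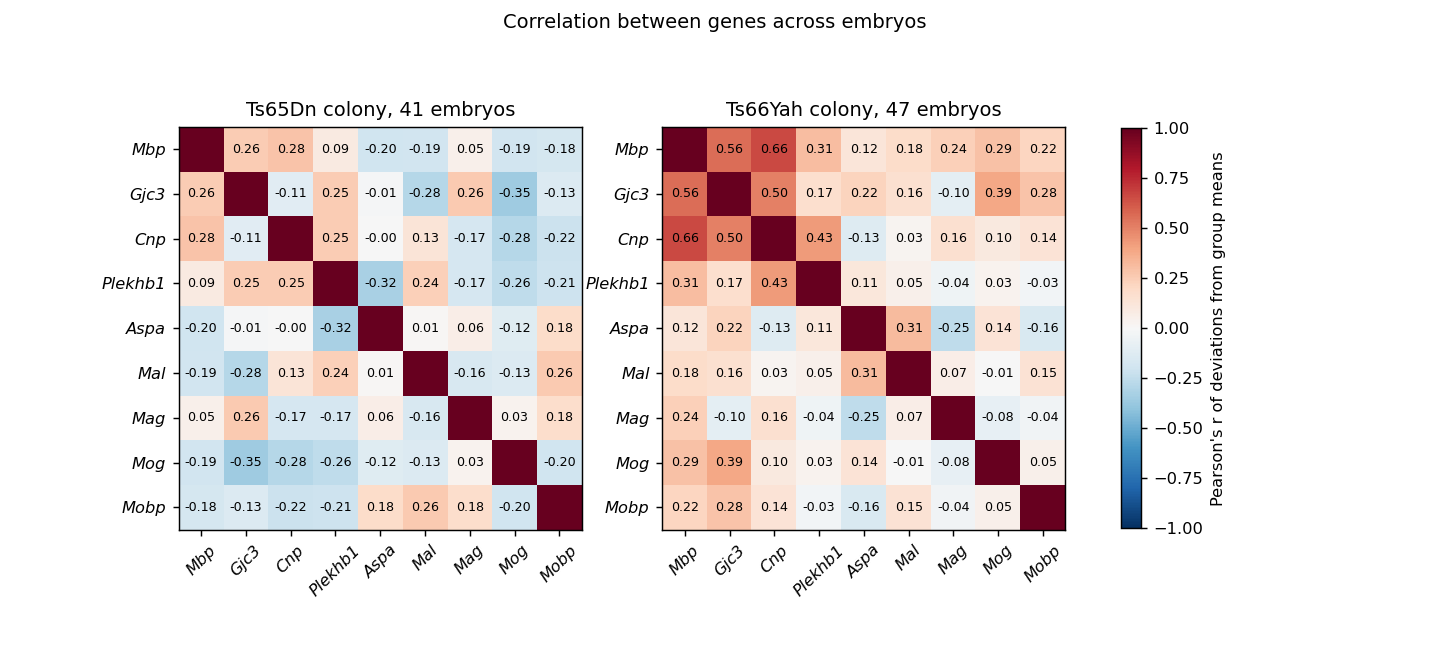
Pearson's r between each pair of genes across embryos, after subtracting group means, in the Ts65Dn colony (41 embryos) and in the Ts66Yah colony without the low-spread array (47 embryos). Colour runs between -1 (blue) and 1 (red), and Mbp, Gjc3 and Cnp form the reddest corner in the Ts66Yah colony, with 0.66 for Mbp and Cnp and 0.56 for Mbp and Gjc3.

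The genes whose pattern was most like that of Mbp were listed for each colony. Likeness is Pearson's r of deviations from group means, given as a description, over the named probe sets at or above the median signal of the colony. The lists draw on different candidates, since Slc6a5 and Hoxa2, at the 22.9 and 33.8 percentiles, lay below that median in the Ts65Dn colony. The 8 genes nearest to Mbp in the Ts66Yah colony were Slc6a5 (r = 0.81), Lamp5 (0.73), Aqp4 (0.71), Pla2g7 (0.71), Penk (0.69), Vamp1 (0.69), Sncg (0.69) and Hoxa2 (0.69). Slc6a5 encodes the glycine transporter of inhibitory neurons of the brainstem and spinal cord, Hoxa2 is a patterning gene of the hindbrain, and Aqp4 encodes the water channel of astrocytes. Cnp ranked 17 of 10130 in that list, members included. Those nearest in the Ts65Dn colony were Foxc1 (0.55), Smg8 (0.53), Avp (0.50), Tmem200c (0.49), Olig1 (0.49), Mrpl40 (0.48), Ywhah (0.47) and Ubxn1 (0.47), and Cnp ranked 334 of 10150. Of these 8 genes Olig1, an oligodendrocyte lineage factor that both models triplicate, had the highest r in the Ts66Yah colony, at 0.36. Slc6a5 and Hoxa2 had r of -0.27 and -0.05 with Mbp in the Ts65Dn colony.

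Mbp was then set against the mean of 13 measured markers of midbrain and hindbrain, a relation chosen after Slc6a5 and Hoxa2 had been seen among the genes nearest to it, so that its p-values are no independent support. Ts66Yah colony embryos with a higher list mean had more Mbp signal when the low-spread array was left out, with r of 0.71 (permutation p = 1e-05, adjusted p = 0.00018 over 18 relations) and rho of 0.79 (permutation p = 1e-05). It was 0.76 within Ts66Yah and 0.65 within EupTs66Yah, 0.70 without the 2 embryos farthest from the list median, and 0.58 (rho 0.69) with the 11 markers left when Slc6a5 and Hoxa2 were taken out. The embryos lowest in the list were Ts66Yah replicates 12 and 21, at 1.28 and 0.70 log2 units below their group mean, and Mbp was 0.71 and 1.32 below its mean in them. Gjc3 followed the list with r of 0.58 (rho 0.47, permutation p = 3e-05, adjusted p = 0.00027), Cnp with 0.49 (rho 0.47, permutation p = 0.0009, adjusted p = 0.0054) and Mag with 0.40 (rho 0.40, permutation p = 0.0041, adjusted p = 0.018). Without the 2 farthest embryos these were 0.43, 0.34 and 0.32, and r for Cnp was 0.73 within Ts66Yah and 0.16 within EupTs66Yah. The other 5 genes did not pass, Plekhb1 and Aspa having the lowest r, at 0.06 and 0.09. Mbp in the Ts65Dn colony had r of -0.07 (rho -0.14, permutation p = 0.68, adjusted p = 0.81), and none of the 9 passed.

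The hindbrain markers themselves lay at a median percentile of 50.7 of all probe sets in the Ts66Yah colony and 34.8 in the Ts65Dn colony, and Slc6a5 at 55.2 and 22.9. The list mean of an embryo had its lowest, median and highest values at 4.90, 6.25 and 6.68 in Ts66Yah, against 5.52, 6.12 and 6.56 in EupTs66Yah without the low-spread array. They were 3.40, 3.85 and 4.17 in Ts65Dn, against 3.35, 3.76 and 3.97 in EupTs65Dn embryos. Of the 13 markers, 9 had a higher mean in Ts66Yah without the low-spread array, where 51.6% of all probe sets had. In Ts65Dn 11 had one, where 49.0% had. Limma passed 0 in either comparison, with 0 at an unadjusted p under 0.05. Slc6a5 was nearest in Ts66Yah, averaging 6.94 ± 0.93 (SD, n = 24) against 6.54 ± 0.75 in EupTs66Yah (n = 23), a log2 difference of 0.41 (SE 0.24, adjusted p = 0.50). With the list mean as a covariate and without the low-spread array, the Ts66Yah difference was 0.47 (SE 0.11) for Mbp, 0.55 (SE 0.13) for Gjc3, 0.40 (SE 0.10) for Plekhb1 and 0.27 (SE 0.09) for Cnp. In that fit 3 of 9 members were called (Mbp, Gjc3 and Plekhb1), where 0.536% of probe sets were called higher (0.626% in either direction). On the same arrays without the covariate 5 were called, Aspa and Mal besides these, where 0.932% of probe sets were in either direction. The covariate was chosen after seeing the data, and the members on this comparison, so these counts describe them and test nothing. The part of hindbrain tissue in the differences was not tested.

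**Figure D5:**
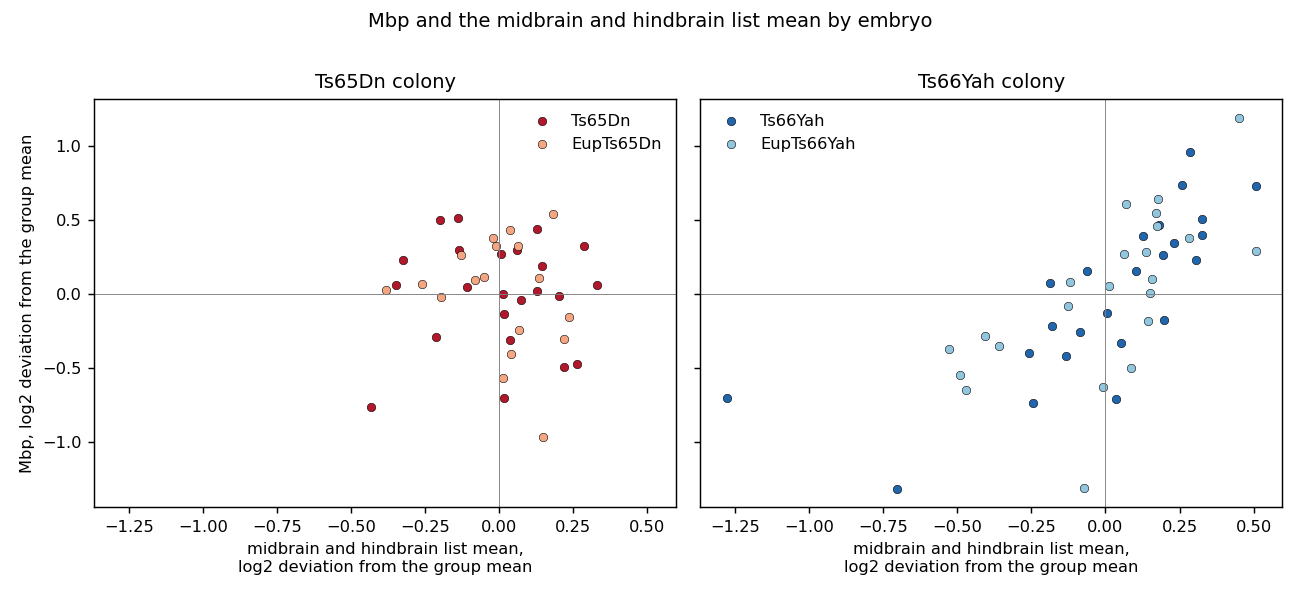
Mbp (vertical axis) against the mean of 13 midbrain and hindbrain markers (horizontal axis) in each embryo, both as log2 deviations from the group mean, for both colonies without the low-spread array. The Ts66Yah colony's points follow a rising band (r = 0.71), the 2 points at the far left being Ts66Yah embryos, while those of the Ts65Dn colony show none (r = -0.07).

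Other genes of myelin and maturing oligodendrocytes were read from a list of 40, of which 37 were measured. In Ts65Dn 28 of the 37 had a higher mean, where 49.0% of all probe sets had, and their log2 differences lay between -0.14 and 0.41 (median 0.06). None passed limma there, none passed the methods' t-test, and 3 had an unadjusted p under 0.05, where 5.79% of all probe sets had. Cryab, a small heat shock protein abundant in oligodendrocytes, was nearest, averaging 5.59 ± 0.32 in Ts65Dn (SD, n = 23) and 5.23 ± 0.34 in EupTs65Dn (n = 18), a log2 difference of 0.36 (SE 0.10, adjusted p = 0.20), and it passed without litter TS18 (adjusted p = 0.0065). In Ts66Yah 29 of the 37 had a higher mean with all arrays (median 0.10), where 58.6% of all probe sets had, and 29 without the low-spread array, where 51.6% had. With all arrays none passed limma or the methods' t-test, and 5 had an unadjusted p under 0.05 by limma, where 10.2% of all probe sets had. The differences lay between -0.26 and 0.45. Bcas1, which marks oligodendrocytes as they begin to myelinate, averaged 7.41 ± 0.25 in Ts66Yah (SD, n = 24) and 7.18 ± 0.29 in EupTs66Yah (n = 24), a log2 difference of 0.23 (SE 0.08, adjusted p = 0.38). Without the low-spread array 1 of 37 passed, where 0.932% of all probe sets did. It was Lpar1, a lysophosphatidic acid receptor of maturing oligodendrocytes, which rose by 0.18 (SE 0.05, adjusted p = 0.093). Its call ended with the litter as a replicate block (adjusted p = 0.15) or array spread as a covariate (adjusted p = 0.29). Myrf, the factor that switches on myelin genes, differed by -0.10 (SE 0.13) in Ts65Dn and 0.01 (SE 0.16) in Ts66Yah, or 0.11 (SE 0.13) without that array.

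The precursor and lineage list holds Olig1 and Olig2, which both models triplicate. Of 20 listed 17 were measured, and 1 passed in Ts65Dn, where 0.491% of all probe sets did. It was Olig1, which averaged 8.01 ± 0.21 in Ts65Dn (SD, n = 23) and 7.70 ± 0.28 in EupTs65Dn (n = 18), a rise of 0.30 (SE 0.08, adjusted p = 0.066). Its call ended without litter TS11, TS113, TS125 or TS137, with adjusted p-values of 0.107 to 0.42, and with the litter as a replicate block (adjusted p = 0.14). Olig2 differed by 0.23 in Ts65Dn (SE 0.07, adjusted p = 0.25) and did not pass. In Ts66Yah none passed with all arrays, where Olig1 differed by 0.37 (SE 0.12, adjusted p = 0.27) and Olig2 by 0.51 (SE 0.22, adjusted p = 0.43). There 4 of 17 had an unadjusted p under 0.05, where 10.2% of all probe sets had. Without the low-spread array 2 passed, where 0.932% of all probe sets did. Olig1 rose by 0.27 (SE 0.06, adjusted p = 0.019) and Olig2 by 0.29 (SE 0.07, adjusted p = 0.030), and 23 and 22 of 24 Ts66Yah embryos lay above the EupTs66Yah median. With array spread as a covariate neither passed (adjusted p = 0.106 and 0.22). Gpr17, a receptor of precursors about to mature, differed by 0.31 (SE 0.10, adjusted p = 0.44) in Ts65Dn and 0.30 (SE 0.14, adjusted p = 0.46) in Ts66Yah, or 0.26 (SE 0.13, adjusted p = 0.43) without that array. Sox10 differed by 0.18 (SE 0.16) in Ts65Dn and 0.06 (SE 0.14) in Ts66Yah with and without it. By litter, 0 of 37 and 0 of 17 genes passed in either colony, with 5 and 3 at an unadjusted p under 0.05 in the Ts65Dn colony, where 10.7% of all probe sets were, and 2 and 2 in the Ts66Yah colony, where 11.5% were. The nearest in the Ts65Dn colony were Tmem88b (adjusted p = 0.27) and Cacng4 (0.27), and in the Ts66Yah colony Gjb1 (0.39) and C1ql1 (0.20).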

How the data were processed

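RNA of the forebrain of 89 embryos was measured on Clariom S arrays, and the authors deposited log2 signals summarised by RMA, per the submitters' processing notes. The version of RMA was not given in the sources used here. Every value column was mapped to a labelled sample, with 0 left unused. The design text counts 25 Ts66Yah arrays while 24 are labelled so, and the labels were followed. Of 22206 probe sets 19572 carry 1 gene symbol, 0 carry several and 2634 are unnamed.

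The groups' log2 values entered limma 3.58.1 (lmFit and eBayes, run under R 4.3.3), whose two-sided p-values were adjusted by Benjamini-Hochberg across the whole array at 10%, with no filter on signal. The main trisomy fits held no litter term, so their p-values measure the spread between embryos and not that between litters. The fit was tried on simulated data with independent noise for each embryo and without the low-spread array. The simulated trisomy fits held no litter effect, so they cannot show how litters bear on the p-values. Litter was tested by the moderated F test and sex as female minus male, each with genotype in the model and without the low-spread array. Correlations used Python 3.11.15, numpy 2.4.6 and scipy 1.17.1 with 100000 two-sided permutations, and figures matplotlib 3.10.9. Replicate numbers were given in accession order and pair no samples, so the litter served as the block. Promoters were RefSeq windows of GRCm38.p6.

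The 9 genes and all gene lists were chosen with earlier results of these data known. Besides the 9, the naming rule took Sox10, Myrf, Olig1, Olig2 and Gpr17 always, and the passing genes with the smallest p of each list, or the nearest one where none did. It also took the 8 genes most like Mbp in each colony. Mbp's promoter is not printed. Precision is limited by the number of arrays. Alternatives tried were a litter block, a sex covariate, the methods' unpaired t-test, the marginal criterion, a filter at the median signal, centring, quantile normalization, leaving out each litter, leaving out the arrays named in the report, and array spread as a covariate. Chosen after seeing the data were the fit without the low-spread array combined with leaving out arrays of mismatched Mmu16 level, or with centring, and the midbrain and hindbrain list mean as a covariate. Labels were checked with the triplicated Mmu16 genes and with Kdm5d, Uty and Eif2s3y.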

Additional observations from a re-analysis of the deposited data

How the results depend on the processing

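The log2 differences of the 9 genes moved by less than 1 standard deviation between embryos in 295 of 295 alternative fits, a wide bound, since that deviation is larger than most of the differences. The sign changed in 9 of the 295, for Mag and Mobp. Mag in Ts65Dn was -0.10 without litter TS113. Mobp in Ts66Yah was -0.03 with the litter as a block, -0.01 after centring and between -0.03 and -0.00 without WT11, WT13 or WT15. Mag in Ts66Yah was 0.08 with array spread as a covariate, 0.01 with the litter as a replicate block (both without the low-spread array) and 0.04 without the narrower arrays. The Cnp difference in Ts65Dn was 0.0028 without TS11 and 0.09 with all litters. In Ts66Yah 38 probe sets were called with all arrays. The count was 207 without the low-spread array, 156 with the litter as a replicate block as well, 91 with array spread as a covariate as well, 139 with the midbrain and hindbrain list mean as a covariate as well, 326 without arrays of mismatched Mmu16 level as well, and 211 with centring as well. Without that array the calls split into 168 higher and 39 lower, and after centring into 98 higher and 113 lower. Other alternatives gave 76 without the 6 narrower arrays, 66 without arrays of mismatched Mmu16 level, 63 without dim probe sets and 446 by the marginal criterion. Leaving out 1 litter gave 15 (without WT12) to 88 (without WT18), and the litter as a block 31. In Ts65Dn 109 were called, 117 with the litter as a block, and 229 by the marginal criterion. Leaving out 1 litter there gave 93 (without TS11) to 116 (without TS125). The difference of effects had 2 calls with all arrays and with the litter as a block, and 33 without the low-spread array. Litter calls were 84 in the Ts65Dn colony and 348 without dim probe sets, and 20 in the Ts66Yah colony, 0 with all arrays and 419 without dim probe sets. Sex calls were 15 in the Ts65Dn colony, 0 with the litter as a block and 97 without the arrays whose Y-linked genes did not match their labelled sex. In the Ts66Yah colony they were 89, 41 with all arrays, 50 with the litter as a block and 166 without those arrays. With all arrays r with Mbp turned to -0.12 for Mag, -0.11 for Mog and -0.0245 for Mobp, the genes in which the low-spread array was highest. The female minus male difference of Mag turned to -0.0364 in the Ts65Dn colony without the arrays of mismatched sex, and to 0.0204 in the Ts66Yah colony with all arrays, and that of Mal there to -0.000421 without the arrays of mismatched sex. The causes of these changes were not tested. The dim genes Mag, Mog, Mobp and Aspa carry no measure of background, and the precision is limited by the number of embryos in each litter.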

Other observations

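Markers of other cell types were read beside the 9 genes for both comparisons, the second without the low-spread array. Of all probe sets, 49.0% had a higher mean in Ts65Dn and 51.6% in Ts66Yah, and 0.491% and 0.932% passed limma. Of 15 astrocyte and radial glia markers 6 had a higher mean in Ts65Dn and 12 in Ts66Yah, and 1 passed: Vim, an intermediate filament gene of radial glia, rose by 0.19 in Ts66Yah (SE 0.05, adjusted p = 0.085), with 24 of 24 embryos above the EupTs66Yah median. It did not pass with all arrays (adjusted p = 0.51), and without the low-spread array its call ended with the litter as a replicate block (adjusted p = 0.12). Of 9 choroid plexus and ependymal markers 2 passed in each comparison, both of them triplicated. Kcne2, a potassium channel subunit, rose by 0.66 in Ts65Dn (SE 0.10, adjusted p = 1.5e-05) and by 0.57 in Ts66Yah (SE 0.16, adjusted p = 0.095), where it did not pass with all arrays (0.63, adjusted p = 0.15) or with the litter as a replicate block (adjusted p = 0.17). Clic6, a chloride channel family member, rose by 0.55 (SE 0.09, adjusted p = 5.4e-05) in Ts65Dn and by 0.65 in Ts66Yah (SE 0.10, adjusted p = 2.9e-05), or 0.78 with all arrays (adjusted p = 0.015). The higher means numbered 8 and 9 of 9 among meningeal markers, 4 and 9 of 12 among endothelial and pericyte markers, 5 and 5 of 10 among microglia markers, and 4 and 4 of 7 among Schwann cell markers. They numbered 2 and 5 of 9 among cortical excitatory neuron markers, 4 and 6 of 10 among GABAergic neuron markers, 7 and 3 of 12 diencephalon probe sets, and 0 and 1 of 2 erythroid markers. No gene of these 8 lists passed limma in either comparison. In Ts66Yah 4 of 9 meningeal, 3 of 12 endothelial and pericyte, 2 of 7 Schwann cell and 2 of 10 GABAergic neuron markers had an unadjusted p under 0.05. So had 1 of 10 microglia and 1 of 9 cortical excitatory neuron markers, and none of the other lists. In Ts65Dn 2 of 9 meningeal, 1 of 12 endothelial and pericyte and 1 of 10 GABAergic neuron markers had one, and none of the other lists. Of all probe sets, 5.79% had one in Ts65Dn and 12.1% in Ts66Yah. Aldh1a2, a retinoic acid enzyme of the meninges, was the nearest gene of these 8 lists in Ts66Yah at 0.36 (SE 0.11, adjusted p = 0.12). It passed when the arrays with a mismatched Mmu16 level were left out too (adjusted p = 0.070). With all arrays 58.6% of all probe sets had a higher mean in Ts66Yah. Among the markers, 14 of 15 (astrocyte and radial glia), 9 of 9 (meningeal), 11 of 12 (endothelial and pericyte) and 9 of 10 (GABAergic) had one. So had 7 of 9 cortical excitatory neuron, 7 of 9 choroid plexus and ependymal, and 5 of 10 microglia markers. The counts were 3 of 7 Schwann cell markers, 8 of 12 diencephalon probe sets and 1 of 2 erythroid markers. The part of these cell types in the values of the 9 genes was not tested.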
